A study of Homo sapiens with 2 samples.

Results

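Persister cells out of cycle are A375 melanoma cells that survived T cell attack and held almost no RNA of 14 genes made when cells replicate their DNA and divide. They were chosen by their UMI counts (distinct RNA molecules seen in a cell), so a cell entered when it had at least 5000 UMIs, at most 20% of UMIs from mitochondrially encoded genes, fewer than 3 of 6 T cell genes detected (CD2, CD3D, CD3E, CD52, PTPRC, TRAC), and at most 2 marker UMIs per 10000 UMIs. The markers were MKI67, TOP2A, CENPF, TPX2, CCNB1, CDC20, UBE2C, BIRC5, NUSAP1, CDK1, ASPM, KIF20A, PLK1 and AURKA. The rule found 2020 cells among the 7144 persister barcodes and the 17895 barcodes of both libraries. They made up 34.3% of the 5897 persister cells that passed the first 3 criteria (95% exact interval 33.0 to 35.5%, Clopper-Pearson).

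The study profiled A375, an established human melanoma cell line, with 10x Chromium single-cell RNA sequencing in 2 samples, and asked what sets apart tumour cells that persist under attack by cytotoxic T lymphocytes (CTLs). Parental A375 cells were untreated. Persister A375 cells had been cocultured for 15 days with CTLs directed at the antigen NY-ESO-1, in medium with 7.5 ng/mL interleukin 2, and the CTLs were replaced every 3 days. Whether parental cells received interleukin 2 is not stated in the labels. Each condition has 1 library, so coculture, library and culture cannot be told apart, no test between conditions was possible, and intervals cover counting error only.

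A dividing cell passes from G1 through S phase, in which DNA is copied, to G2 and mitosis. Cyclin-dependent kinases (CDKs) drive each step, CDK inhibitors such as p21 and p27 hold them back, and the retinoblastoma family with the DREAM complex keeps E2F and mitotic genes silent in resting cells. Tumour cells that stop dividing, for a while or for good, are a known reservoir of cells that survive therapy.

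The same rule found 167 of 9094 kept parental cells out of cycle, or 1.84% (1.57 to 2.13%). Cells with at least 10 marker UMIs per 10000, called cycling below, numbered 2384 in the persister library (40.4%) and 8442 in the parental library (92.8%). The other 1493 persister cells (25.3%) lay between the cutoffs. Out-of-cycle cells were shallower than cycling cells, with a median of 10618.5 against 14418 UMIs in the persister library and 6448 against 8315.5 in the parental library. Their median share of mitochondrially encoded UMIs was 8.24% against 7.10% in persister and 7.17% against 5.86% in parental cells. The part of depth and mitochondrial RNA in the differences below was not tested. Of the out-of-cycle persister cells, called members below, 801 had no marker UMI, 835 had 1, 305 had 2 and 79 had more, and the shares above moved with the filters on depth and markers. Among persister cells of at least 10000 UMIs 29.5% were out of cycle, among cells thinned to 5000 UMIs 41.8%, and 13.6% had no marker UMI.

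**Figure D1:**
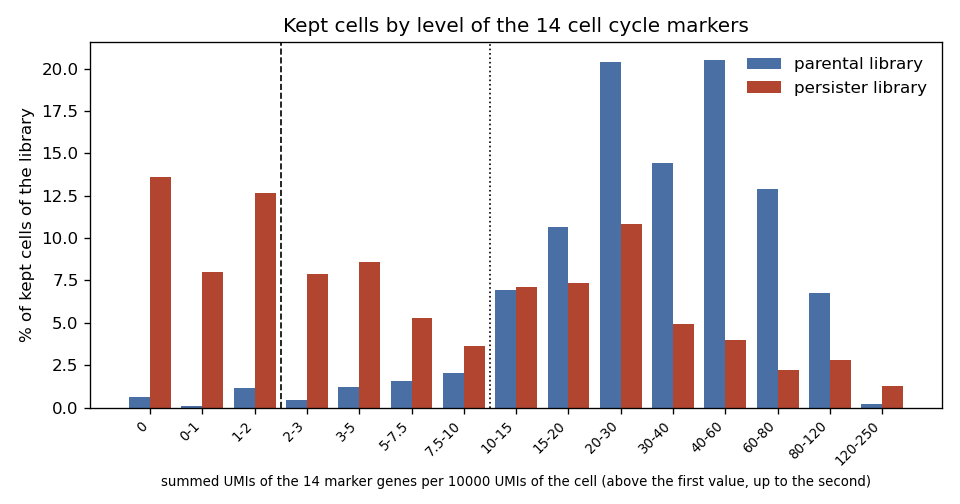
Bars give the percentage of kept cells of each library (y axis) in bins of summed UMIs of the 14 markers per 10000 UMIs of the cell (x axis), with the upper limit of out-of-cycle cells dashed and the lower limit of cycling cells dotted. Persister cells spread over all bins, with 13.6% at 0, while 92.8% of parental cells lie right of the dotted line.

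The members were compared by markers of melanoma and of cells that could be mixed in. The 17 T cell markers include the 6 T cell genes of the rule, so the low level of those 6 is in part set by it. Melanoma markers summed to 26753 CPM (UMIs per 1000000 UMIs of the group) in out-of-cycle persister cells and 21395 CPM in cycling persister cells. S100A6 alone gave 19854 and 15207 CPM of these sums. In members 21 of the 24 were detected, and the 3 at 0 UMIs were MLANA, TYR and DCT. SOX10, a transcription factor of the melanocyte lineage, was at 187 CPM in out-of-cycle and 180 CPM in cycling persister cells. T cell markers summed to 15.1 CPM in the members, 17.8 CPM in cycling persister cells and 27.5 CPM in out-of-cycle parental cells. IL7R alone gave 30 of the 33 UMIs of that parental sum, and 129 of the 351 UMIs in members. Members had UMIs of 16 of the 17 markers, all but CD8A. Out-of-cycle parental cells, with far fewer UMIs in all, had UMIs of 2, IL7R and TRAC. Apart from IL7R, each marker with UMIs was higher in members by CPM, with TRBC2 at 3.79 CPM against 0 UMIs. The order of the sums of members and out-of-cycle parental cells thus rests on IL7R. Cytotoxic effector genes summed to 6.41 CPM in the members and 6.67 CPM in cycling persister cells and had 3 UMIs in out-of-cycle parental cells. Of 38 barcodes seen in both libraries, 8 were members, and leaving all 38 out gave 183 in place of 183 genes higher and 455 in place of 458 lower in the comparison that follows.

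Members were compared with cycling persister cells by CPM of their summed UMIs (23230741 against 36457703 UMIs). A gene was measured at 5 CPM or more in either group and called at a 2-fold ratio, and log2 folds are differences of log2(CPM + 1), which understate the difference of low genes. Among the 9591 measured, 458 genes (4.78%) were called lower in the out-of-cycle cells and 183 (1.91%) called higher, while the log2 folds of all 9591 had a median of 0.0015. The marker rule used this contrast, so the values are a description. Cells between the cutoffs lay between both groups for 183 of the 183 higher and 450 of the 458 lower genes. These genes were chosen for a difference of the end groups, and the cells by the same marker scale. Nothing is read from these counts, and the share over all measured genes was not computed.

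The markers themselves summed to 73.8 CPM in the members and 3714 CPM in cycling persister cells. MKI67, which coats mitotic chromosomes, was 3.01 CPM in members, 31.1 CPM in cells between the cutoffs and 279 CPM in cycling cells. TOP2A, a topoisomerase that untangles copied DNA, was 4.48, 39.2 and 523 CPM in the same order, and UBE2C, a ubiquitin-conjugating enzyme of mitotic exit, 6.63, 41.9 and 560 CPM. Of 59 other G2 and M phase genes that the rule did not read, 58 were called lower in members (median log2 fold -3.58). GTSE1, a G2 and S phase protein that binds microtubules, was 0.947 CPM in members and 78.9 CPM in cycling cells (83.3-fold lower, counting interval 54.9 to 133). HJURP, the chaperone of the centromeric histone CENP-A, was 1.12 against 66.0 CPM, and AURKB, a mitotic kinase, 1.72 against 78.7 CPM. CCNA2, the cyclin of S and G2 phase, was 1.08 against 54.5 CPM. Genes of this phase are tied to the markers by the cell cycle, and nothing is read from their level.

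Promoters of the markers are shown because the rule chose cells by these genes, which sets their joint low level. Cell cycle genes of this kind are known to carry CHR elements (TTTGAA) and CCAAT boxes, bound by the DREAM complex and by NF-Y. Each runs 5′ to 3′ from 250 bases before to 50 bases after the RefSeq gene start (build GRCh38.p14), with TTTGAA and CCAAT on either strand in capitals: CDC20 at chr1:43358731-43359030 (plus strand), PLK1 at chr16:23678639-23678938 (plus strand) and CCNB1 at chr5:69166900-69167199 (plus strand).
CDC20: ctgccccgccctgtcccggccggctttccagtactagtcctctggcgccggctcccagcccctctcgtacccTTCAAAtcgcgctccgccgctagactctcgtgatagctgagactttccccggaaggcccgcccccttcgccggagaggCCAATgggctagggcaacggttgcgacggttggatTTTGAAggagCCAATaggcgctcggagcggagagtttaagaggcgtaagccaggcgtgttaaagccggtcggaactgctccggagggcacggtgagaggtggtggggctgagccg
PLK1: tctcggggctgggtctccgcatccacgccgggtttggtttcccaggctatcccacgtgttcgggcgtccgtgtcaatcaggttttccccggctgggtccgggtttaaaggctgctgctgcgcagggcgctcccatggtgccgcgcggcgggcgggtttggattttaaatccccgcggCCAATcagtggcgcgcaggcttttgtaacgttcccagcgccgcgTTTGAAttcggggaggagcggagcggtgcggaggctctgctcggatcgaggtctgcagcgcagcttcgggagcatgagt
CCNB1: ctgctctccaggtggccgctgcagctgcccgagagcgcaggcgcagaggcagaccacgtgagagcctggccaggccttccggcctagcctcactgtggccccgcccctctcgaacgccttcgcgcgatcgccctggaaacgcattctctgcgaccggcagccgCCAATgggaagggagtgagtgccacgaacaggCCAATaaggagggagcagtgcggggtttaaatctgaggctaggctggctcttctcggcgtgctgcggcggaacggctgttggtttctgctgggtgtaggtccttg

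Of the 14 marker genes 10 had promoters in the table, 11 promoters in all (not TPX2, UBE2C, BIRC5 and AURKA). TTTGAA or its complement was in 9 of the 11 (81.8%), against 15.2% of all 35116 promoters of the same 300 bases and 10.6% of those of genes measured in persister cells. CCAAT or its complement was in 11 of 11, against 34.6% of all promoters and 35.4% of those of genes measured in persister cells. CDC20 held 2 copies of each, PLK1 held 1 of each, and CCNB1 held 2 CCAAT and 0 TTTGAA in this window. Promoters of the other genes lower in members held TTTGAA in 28.3% and CCAAT in 53.5% of 467 promoters. Genes higher in members had 12.1% and 32.4% of 207 promoters. E2F-type letters (TTTCCCGC, TTTGGCGC or TTTCGCGC, either strand) were in 39.3% of S phase gene promoters and 14.3% of those of the other lower genes. They were in 0 of the 207 promoters of higher genes, against 2.74% of all promoters and 4.38% of those of genes measured in persister cells. The 3 letter sets can overlap in a promoter, and a match is no binding site.

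DNA replication genes, from a list of which the rule read none, were also low in members. They are tied to the markers by the cell cycle, as the G2 and M phase genes are. The rule does not tell cells in G1 of a running cycle from cells that had left it. The S phase list had 48 genes measured, of which 38 were called lower and 0 called higher (median log2 fold -1.74). RRM2, a subunit of the reductase that makes deoxynucleotides, was 3.66 CPM in members, 28.2 CPM between the cutoffs and 113 CPM in cycling cells (30.8-fold lower, 24.9 to 38.7). PCNA, the sliding clamp of DNA polymerase, was 18.6 against 41.2 CPM, a difference of 2.22-fold (1.99 to 2.48). Per cell at 5000 UMIs, the S phase list gave a median of 3 UMIs in members (5th to 95th percentile 1 to 13) and 12 in cycling persister cells (4 to 31). The spreads overlap, and 134 members (6.63%) reached the median of the cycling cells. Without them 199 genes were higher and 485 lower. PCNA was low at both ends of the marker scale, at 15.2 CPM in cells with no marker UMI, 50.1 CPM at 10 to 20 per 10000 and 15.8 CPM in cells above 50 per 10000.

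Among 16 measured replication-dependent histone genes, which package newly made DNA, 12 were called lower and 0 called higher (median log2 fold -1.89), with HIST1H1D at 142 against 515 CPM. FOXM1, the transcription factor of the G2 programme, was 4.78 against 54.8 CPM, and MYBL2, its partner in S and G2 phase, 5.12 against 67.4 CPM. Of the 20 measured E2F, MYB and FOXM1 regulators, 9 were called lower and 0 called higher. E2F7, an E2F that represses, was 25.9 CPM in members, 40.3 CPM between the cutoffs and 85.3 CPM in cycling cells. E2F1, which activates S phase genes, was 4.31, 12.0 and 9.22 CPM, highest in the cells between the cutoffs. Chromatin proteins stood beside the cycle lists: HMGB1 was 359 against 1279 CPM and H2AFZ, a histone variant, 462 against 1470 CPM, and 8 of 25 chromatin regulators were lower.

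The genes that hold or release the G1 brake showed a smaller difference. Of 17 measured G1 cyclins and kinases, 2 were called lower and 0 called higher (median log2 fold -0.29), although the list's sum was higher in members, at 1953 against 1839 CPM. CCNE2 (2.20 against 14.4 CPM) was one of them, and CDC25A, the phosphatase that activates CDK2, was the other (3.92 against 15.2 CPM). CCND1, cyclin D1 (GRCh38 chromosome 11, 69641087 to 69654474, plus strand), was 1393 CPM in members, 1358 CPM between the cutoffs and 1161 CPM in cycling persister cells. It was 675 and 597 CPM in out-of-cycle and cycling parental cells, so all persister groups lay above both parental groups.

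Of 28 measured CDK inhibitors and quiescence genes, 3 were called higher in members than in cycling persister cells and 2 called lower. Their median log2 fold was 0.24, while their sum was lower in members, at 1485 against 1589 CPM. The 3 were MXD4, MXI1 and YPEL3, and the 2 were CDKN2C and CDKN2D; MXI1 and CDKN2C are named because the counts are small. In the parental library, which shares no cells with this contrast, 14 of 29 were called higher in out-of-cycle cells and 2 called lower (median 0.86). The whole parental comparison called 669 of 9932 genes (6.74%) higher and 749 (7.54%) lower. The out-of-cycle parental sum holds only 1201768 UMIs, and with a minimum of 20 CPM the counts were 178 higher and 407 lower, an alternative chosen after seeing the data. The difference between the libraries was not tested.

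CDKN1A encodes p21 and lies on chromosome 6 (36676460 to 36687339, plus strand). Its level was 111 CPM (107 to 116) in members, 84.6 CPM between the cutoffs and 119 CPM (115 to 122) in cycling persister cells. In parental cells it was 89.0 CPM (73.0 to 108) out of cycle and 38.4 CPM (37.1 to 39.8) in cycle, 2.32-fold higher (1.89 to 2.81). The members and cycling persister cells lay close to each other. Against out-of-cycle parental cells the sign for CDKN1A depends on depth: the log2 fold was 0.32 in all cells, -1.06 in cells of 10000 UMIs or more, of which the parental group has 18, and -1.45 in cells of 10000 to 20000 UMIs. CDKN1C, p57, was 31.4 against 18.9 CPM in the persister and 61.6 against 20.6 CPM in the parental library. CDKN1B, p27, was lower out of cycle in both, at 18.8 against 27.1 CPM and 11.7 against 23.9 CPM. CDKN2D, p19, was 22.3 against 58.0 CPM in persister and 19.97 against 37.1 CPM in parental cells.

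MXD4, which opposes growth-promoting E-box transcription, was 23.5 CPM in members and 8.91 CPM in cycling persister cells, and 64.9 against 15.8 CPM in parental cells. BTG1, an antiproliferative gene, was 664 CPM in members, 641 CPM between the cutoffs and 772 CPM in cycling persister cells, against 155 and 98.5 CPM in parental cells. DDIT3, the stress transcription factor CHOP, was 423 and 427 CPM in persister cells out of and in cycle, and 65.7 and 17.2 CPM in parental cells (3.82-fold higher out of cycle, 3.00 to 4.79). Few parental cells carried it: at 5000 UMIs, 10.8% of out-of-cycle and 7.68% of cycling parental cells had a DDIT3 UMI, against 84.6% of members. At that depth 1 out-of-cycle parental cell had 19. In unthinned cells, 5% of the out-of-cycle parental cells held 74.7% of the group's DDIT3 UMIs and 58.9% of its CDKN1A UMIs. Of 27 measured p53 targets, 0 were called in persister cells (median log2 fold 0.15), while 5 of 29 were higher and 0 lower out of cycle in parental cells (median 0.63). Over all measured genes, 1.91% were called higher and 4.78% lower in persister cells, and 6.74% and 7.54% in parental cells. The difference between the libraries in p53 targets was not tested. GDF15, a p53 and stress target named here after its values were seen, was 64.1 against 78.1 CPM in persister and 16.6 against 2.21 CPM in parental cells.

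**Figure D2:**
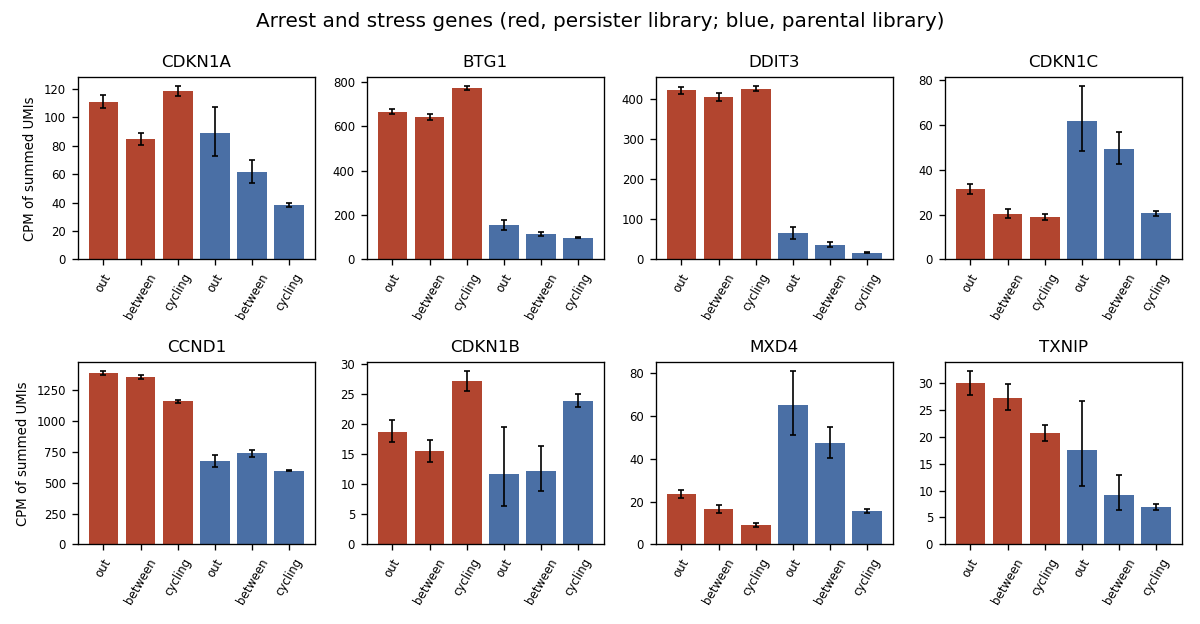
Bars give CPM of summed UMIs (y axis, a separate scale for each gene) of 8 arrest and stress genes in out-of-cycle, between-cutoff and cycling cells of the persister (red) and parental (blue) libraries, with 95% exact Poisson intervals. CDKN1A and DDIT3 stand within a narrow range in out-of-cycle and cycling persister cells and step down from 89.0 to 38.4 CPM and from 65.7 to 17.2 CPM in parental cells, where 5% of the out-of-cycle cells hold 58.9 and 74.7% of their UMIs.

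The 183 genes higher in members were mostly low in level: 47 reached 20 CPM and 9 reached 100 CPM. LCE1E, a late cornified envelope gene of the epidermis, lies on chromosome 1 (152786214 to 152788426, plus strand) and stood first by fold among the 47 genes. It had 202 CPM (196 to 207) in members, 81.6 CPM between the cutoffs and 24.3 CPM in cycling persister cells. It had 0 UMIs in out-of-cycle parental cells, which makes the members at least 80.7-fold higher, with the floor of 3 UMIs over the parental group. LCE1E UMIs lay in few cells: at 5000 UMIs a cell, 14.1% of members (18.2% unthinned) and 4.70% of cycling persister cells (8.89% unthinned) had one. No out-of-cycle parental cell of 167 had one (exact upper limit 2.18%). In unthinned cells, the 5% of members with most LCE1E held 80.5% of it. Its level by marker bin was uneven, at 210 CPM with no marker UMI, 56.7 CPM above 2 to 5 per 10000 and 123 CPM above 5 to under 10.

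A receptor phosphatase and 2 calcium-binding proteins were among the 9 genes at 100 CPM. PTPRZ1, known from glial cells, is on chromosome 7 (121873089 to 122062036, plus strand) and had 118 CPM (114 to 122) in members, 61.6 CPM between the cutoffs and 37.1 CPM (35.1 to 39.1) in cycling persister cells. In parental cells it was 9.99 CPM (5.16 to 17.4) out of cycle and 2.41 CPM in cycle. At 5000 UMIs, 30.2% of members, 11.0% of cycling persister and 4.19% of out-of-cycle parental cells had a PTPRZ1 UMI (40.5, 22.1 and 5.99% unthinned). S100B, a calcium-binding protein used as a melanoma marker, is on chromosome 21 (46598962 to 46605208, minus strand). It was 105 against 33.5 CPM in persister and 157 against 43.1 CPM in parental cells. S100A1, of the same family, was 131 against 53.9 CPM in persister and 161 against 48.6 CPM in parental cells. For both S100 genes, out-of-cycle cells of either library thus lay above cycling cells of either library.

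GAP43, a growth-cone protein of neurons, was 32.1 against 11.8 CPM in persister cells and had 2 UMIs in out-of-cycle parental cells. APOD, a lipocalin made by glia and by resting fibroblasts, was 30.4 CPM in members, 18.3 CPM between the cutoffs and 11.6 CPM in cycling persister cells. Other genes in this group were the long non-coding RNA SLCO4A1-AS1 (183 against 72.6 CPM), the antigen LEMD1 (72.8 against 29.1 CPM) and the monocarboxylate transporter SLC16A4 (40.9 against 14.6 CPM). IGFBP5, an insulin-like growth factor binding protein, was 26.2 against 6.45 CPM in persister and 59.1 against 18.2 CPM in parental cells. SLC26A2, a sulfate transporter, was 113 against 49.2 CPM in persister cells and far more abundant in parental cells, at 796 CPM out of cycle and 165 CPM in cycle.

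Calls were in part common to both libraries, which share no cells but share the marker rule and the way depth differs between the groups. Of the 458 genes lower in out-of-cycle persister cells, 371 (81.0%) were also lower in out-of-cycle parental cells, which is 49.5% of the parental lower genes. Of the 183 higher genes 80 (43.7%) were also called higher in parental cells, 12.0% of the parental higher genes. By CPM alone, 158 (86.3%) were higher in out-of-cycle than in cycling parental cells. So were 48.5% of all genes measured in the persister library, whatever their sign there. The share of all genes with the same sign in both libraries was not computed. Across 6293 genes at 20 CPM or more outside the cycle lists, the log2 folds of both libraries had a Pearson correlation of 0.759, a description across genes, which are not replicates. No gene was called in opposite directions in the 2 libraries.

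**Figure D3:**
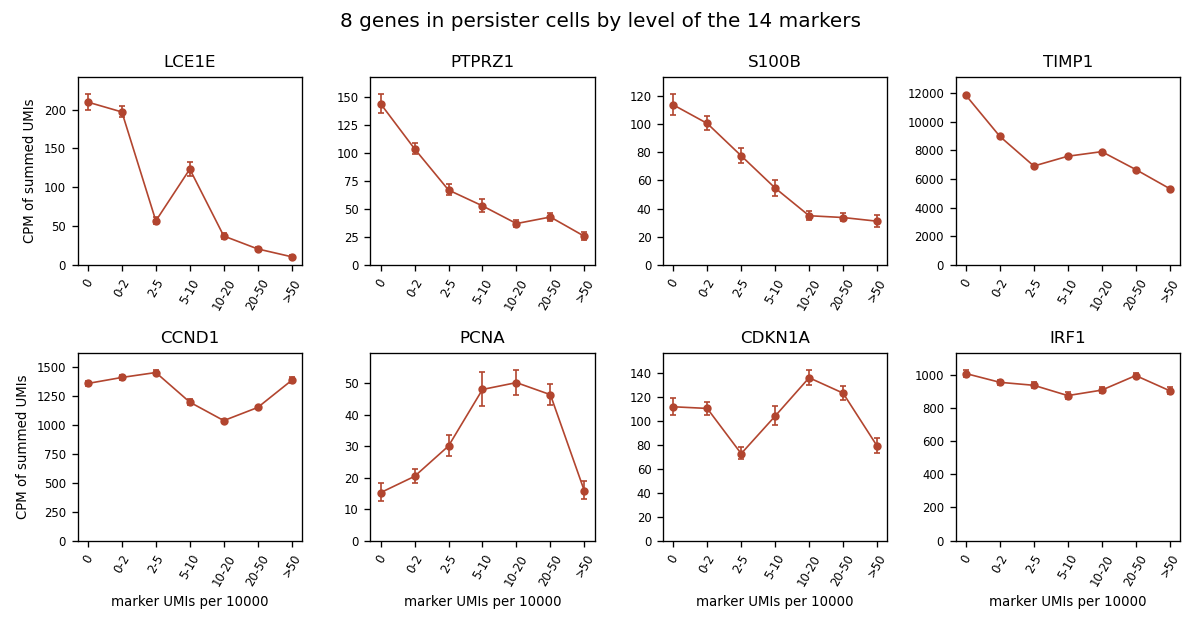
Points give CPM of summed UMIs (y axis, from 0, a separate scale for each gene) of 8 genes in all kept persister cells in 7 bins of marker UMIs per 10000 (x axis: 0, up to 2, up to 5, under 10, up to 20, up to 50, above 50), with 95% exact Poisson intervals. PTPRZ1 is at 144 CPM in the first and 25.6 CPM in the last bin and S100B at 114 and 31.0 CPM, IRF1 stays between 874 and 1007 CPM, and PCNA is highest at 50.1 CPM in the bin of 10 to 20.

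Interferon-gamma and antigen presentation genes differed little between persister cells out of and in cycle, and were high against parental cells chosen by the same rule. No interferon-gamma response gene of the 30 measured was called between members and cycling persister cells (median log2 fold 0.16), and the list summed to 10928 against 9679 CPM. Against out-of-cycle parental cells, the comparison of 10055 genes called 1036 (10.3%) higher and 1175 (11.7%) lower, and all genes had a median of -0.13. With TMM scaling the counts were 1435 and 731, and with that median set to 0 they were 1207 and 906. There 29 of 29 measured interferon-gamma response genes were called higher. Their median log2 fold was 3.46, or 2.91 with the 9 genes at 0 in parental cells set to their bound. A gene was measured at 5 CPM in either group, and within the parental library only 15 of the list's 35 genes were. The others could pass only through their level in members, which favours a call of higher, so this count is a description. The same minimum applied to the other lists compared with parental cells. The members are in both comparisons, and depth differed, at 1.60 times as many UMIs per cell as in out-of-cycle parental cells.

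IRF1, a transcription factor induced by interferon-gamma, is on chromosome 5 (132481609 to 132490798, minus strand) and had 973 CPM (961 to 986) in members, 913 CPM between the cutoffs and 945 CPM in cycling persister cells. It was 15.8 CPM (9.52 to 24.7) in out-of-cycle and 16.3 CPM in cycling parental cells, so members were 61.6-fold higher (39.4 to 102) than parental cells out of cycle. B2M, the invariant subunit of class I molecules, was 7585 CPM in members, 6548 CPM in cycling persister cells and 739 CPM in out-of-cycle parental cells. HLA-B, a heavy chain whose count can be mixed with its near copies, was 3609, 3172 and 149 CPM in the same order. HLA-F had 53.8 CPM in members and 0 UMIs in out-of-cycle parental cells (at least 21.6-fold higher). The 21 measured MHC class I genes had 0 calls against cycling persister cells (median log2 fold 0.18). Against out-of-cycle parental cells 18 of them were called higher and 1 called lower (median 2.35).

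The interferon-gamma list was also compared per cell; free RNA in the droplets was not measured, and its part in these values was not tested. At 5000 UMIs, members had a median of 54 UMIs of the interferon-gamma list (5th to 95th percentile 34 to 80), cycling persister cells 48 (29 to 71) and out-of-cycle parental cells 7 (2 to 15). Of the members, 99.9% lay above the 95th percentile of the out-of-cycle parental cells. MHC class I genes gave 84 UMIs (54 to 118) in members, 74 (45 to 104) in cycling persister and 13 (7 to 23) in out-of-cycle parental cells. CXCL10, a chemokine that attracts T cells, was seen in fewer cells, 12.7% of members and 15.3% of cycling persister cells (19.6 and 26.0% unthinned), and in 0 of 167 out-of-cycle parental cells (exact upper limit 2.18%). CD274, the checkpoint ligand PD-L1, was 17.9 CPM in members and 23.7 CPM in cycling persister cells, against 2 UMIs in out-of-cycle parental cells.

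Type I interferon response genes had a larger median within the persister library than the interferon-gamma and MHC lists, a difference that was not tested. Among the 44 measured, 37 lay above 0 (median log2 fold 0.47), and 3 (OAS1, IFIT1 and IFIT2) were called higher and 0 called lower; IFIT1 and IFIT2 are named for the small count. OAS1, which senses double-stranded RNA, was 21.6 against 9.30 CPM (2.32-fold, 2.02 to 2.68), and IFI27 86.4 against 46.2 CPM. XAF1, an interferon-induced apoptosis factor, was 181 CPM in members, 140 CPM between the cutoffs and 128 CPM in cycling persister cells, with 0 UMIs in out-of-cycle parental cells. Per cell the list gave 24 UMIs (13 to 43) in members and 18 (9 to 31.85) in cycling persister cells. MHC class II genes lay above 0 in 16 of 16 cases against cycling cells, with 0 called (median log2 fold 0.29), and CIITA, their master regulator, was 116 against 80.4 CPM. Out-of-cycle parental cells went the same way against cycling parental cells. There MHC class II genes lay above 0 in 14 of 14 cases, with 2 called higher (median 0.61). Type I interferon response genes did so in 21 of 27, with 5 called higher and 0 lower (median 0.34). Over all genes measured in parental cells, 6.74% were called higher.

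**Figure D4:**
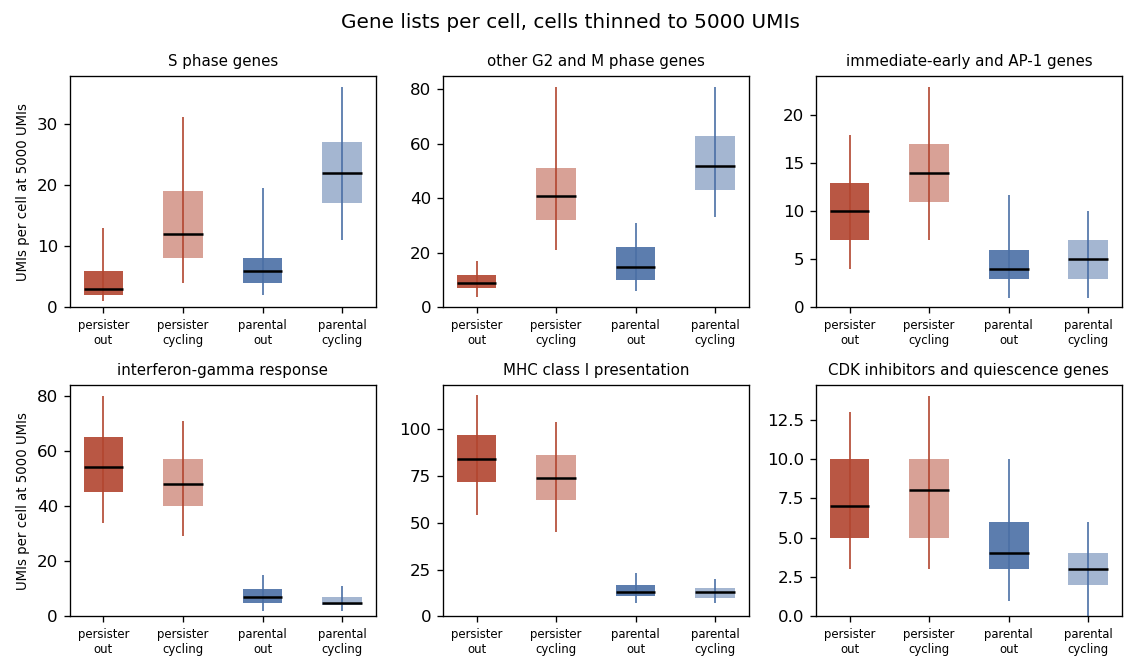
Boxes give the middle 50% of cells, black lines the median and vertical lines the 5th to 95th percentile of UMIs per cell (y axis, cells thinned to 5000 UMIs) of 6 gene lists in out-of-cycle (dark) and cycling (light) cells of the persister (red) and parental (blue) libraries. Medians of the interferon-gamma list are 54 and 48 UMIs in persister and 7 in out-of-cycle parental cells, while S phase medians are 3 and 12 UMIs in persister cells.

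Growth-factor and stress lists lay slightly below 0 in members. Of 26 measured immediate-early and AP-1 genes 22 were below 0 and 1 was called lower, the list summed to 2028 against 2808 CPM, and the median was 10 against 14 UMIs per cell. FOSL1, an AP-1 subunit, was that gene, at 289 CPM in members, 413 CPM between the cutoffs and 620 CPM in cycling persister cells (2.14-fold lower, 2.09 to 2.20), and it was 114 against 286 CPM in parental cells. In parental cells FOSL1 went against most of its list, of which 17 of 26 measured genes lay above 0 out of cycle (median log2 fold 0.55). There 9 were called higher and 1 lower, against 6.74% and 7.54% of all measured genes, and the list's sums were close, at 1050 against 1046 CPM. AXL, a receptor kinase of dedifferentiated melanoma, was 29.96 against 53.9 CPM in persister and 14.2 against 34.5 CPM in parental cells. Of 43 measured integrated stress and unfolded protein response genes 0 were called within the persister library (median log2 fold -0.13). Against out-of-cycle parental cells 29 were called higher and 2 called lower. Of 20 heat-shock proteins 7 were called lower than in out-of-cycle parental cells and 0 called higher, with HSPA8, a constitutive chaperone, at 125 against 641 CPM.

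Lysosome and autophagy genes lay above 0 in 24 of 29 cases against cycling persister cells, with 0 at 2-fold and a median log2 fold of 0.35. SQSTM1, the autophagy receptor p62, was 1489 against 910 CPM, and CTSD, a lysosomal protease, 79.6 against 46.1 CPM. In the parental library 26 of 29 lay above 0 (median 0.52). Senescence-associated secretion genes, which arrested cells can release, had 4 of 27 called higher in members and 1 called lower. Their median was -0.14 on the log2 scale, while their sum was higher in members, at 12713 against 9468 CPM. The 4 were IGFBP5, PLAT, STC1 and IL1A and the lower gene was CXCL2; STC1 and IL1A are named for the small count. TIMP1, an inhibitor of matrix proteases and the most abundant of that list, maps to chromosome X (47582313 to 47586789, plus strand). Its level was 9987 CPM in members, 6818 CPM in cycling persister cells, 612 CPM in out-of-cycle and 350 CPM in cycling parental cells. Mitochondrially encoded genes lay above 0 in 12 of 13 cases, at 82656 against 70966 CPM.

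Against out-of-cycle parental cells, members differed beyond the interferon lists. SPRR2D, a cornified envelope gene, was 558 against 11.7 CPM (47.9-fold higher, 28.5 to 87.7), and the complement component C3 160 against 3.33 CPM (48.1-fold, 18.8 to 177). WARS, the tryptophanyl-tRNA synthetase, was 2054 against 58.3 CPM (35.3-fold, 27.9 to 45.2). Genes lower in members included MEOX2, a homeobox factor, at 2.20 against 58.3 CPM, MGP, matrix Gla protein, at 1.51 against 59.9 CPM, and CAV1, caveolin, at 24.1 against 300 CPM. SOD3, extracellular superoxide dismutase, was 0.344 against 29.1 CPM (84.6-fold lower, 38.5 to 211). PLK2, a kinase induced by p53, was 23.4 CPM in members, 20.5 CPM in cycling persister cells, 175 CPM in out-of-cycle and 81.9 CPM in cycling parental cells. In cells of 10000 UMIs or more, with 18 parental cells, MGP was no longer called, at a log2 fold of -0.97 in place of -4.60. The other 7 kept their direction and call there, at 7.35 in place of 5.22 for C3, 4.31 in place of 5.47 for SPRR2D, -2.53 in place of -3.58 for CAV1, -2.01 in place of -2.85 for PLK2 and -5.65 in place of -4.49 for SOD3. The libraries had the same order in cycling cells for each of these 8 genes, with SPRR2D at 418 against 4.95 CPM and CAV1 at 34.9 against 406 CPM.

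**Figure D5:**
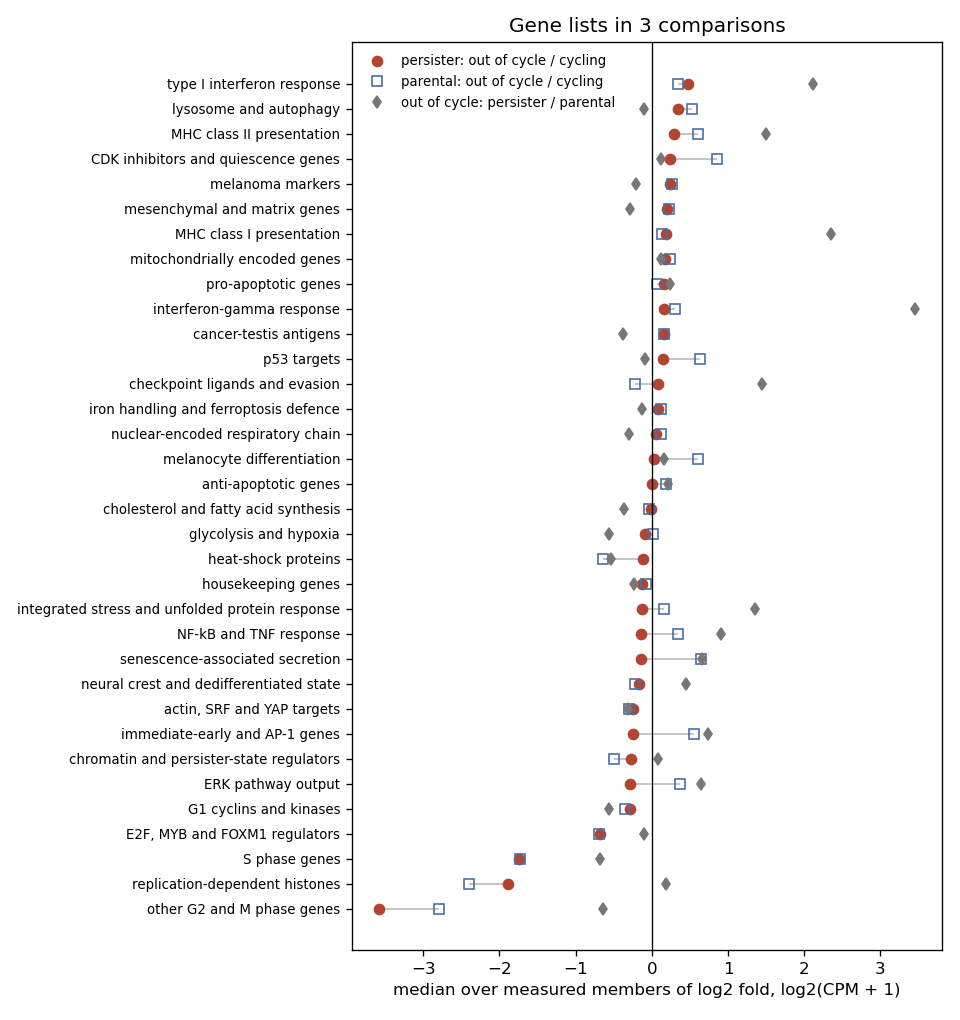
Points give the median log2 fold over measured members of each gene list (x axis) in persister cells out of cycle against cycling (red circles), the same in parental cells (blue squares) and out-of-cycle persister against out-of-cycle parental cells (grey diamonds). Cycle lists lie left of 0 in both libraries, CDK inhibitors and p53 targets lie at 0.24 and 0.15 in persister and 0.86 and 0.63 in parental cells, and interferon lists lie far right of 0 only for the grey diamonds.

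Members varied among themselves in a small set of genes. Over 7336 genes with at least 100 UMIs in the thinned members, the variance over the mean of UMIs per cell had a median of 1.03, and 120 genes exceeded 2. TIMP1 had the highest ratio, 64.5, with a mean of 51.4 UMIs and a maximum of 369 UMIs in a cell. FDCSP, a secreted peptide, had a ratio of 18.4 and was seen in 1.39% of members, with up to 37 UMIs in a cell, and LCE1E had a ratio of 15.3. FERMT1, an epithelial integrin activator, had 14.4 and was seen in 72.7% of members, and AREG, a ligand of the EGF receptor, had 12.0 and was seen in 25.7%. The genes FDCSP, FERMT1 and AREG were named from this ranking after their values were seen.

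The cells next to the cutoff were close in most of the values compared, with LCE1E the exception. The 313 members with 1.5 to 2 marker UMIs per 10000 had 1218 CPM of S phase genes, 82.5 CPM of PTPRZ1 and 950 CPM of IRF1. The 256 cells just outside, above 2 to 2.5 per 10000, had 1465, 72.0 and 927 CPM. LCE1E was 89.8 CPM just inside and 42.5 CPM just outside, a gap of more than 2-fold. Among the members, the 801 without a marker UMI had 144 CPM of PTPRZ1 and the 1219 with 1 or more had 104 CPM.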

How the data were processed

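Single-cell RNA was counted in 1 parental and 1 persister library (10x 3' chemistry, version 3). The deposited values are whole UMI counts per gene and cell barcode, made by the authors with Cell Ranger 3.1.0 on GRCh38, per the submitters' processing notes. The annotation release they counted on was not given in the sources read. Barcodes were filtered and grouped by the rule given at the start of the report, and UMIs were summed per group and scaled to CPM with Python 3.11.15, numpy 2.4.6, scipy 1.17.1 and pandas 2.3.3. No doublet caller was run. Gene positions came from GENCODE 29 (233 of 233 IDs matched) and promoters from RefSeq. Intervals are exact 95% Poisson or Clopper-Pearson intervals of counting error. With 1 library per group no gene was tested.

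The cells and the 38 gene lists were chosen with earlier results of these data known. Genes named were the markers, a few fixed genes, the 15 largest log2 folds in each direction at 20 CPM or more and up to 3 per list at 10 CPM or more, unless stated otherwise. The fold calculation was tested on simulated sums. Alternatives varied the filters, marker cutoffs, scaling, depth, pseudocount and minimum level.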

Additional observations from a re-analysis of the deposited data

How the results depend on the processing

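No paired analysis was possible because each group has 1 library, and no library could be left out. The share of persister cells out of cycle was 29.5% at 10000 UMIs or more, 32.5% at no more than 10% mitochondrial UMIs, 21.6% at 1 marker UMI or fewer per 10000, 13.6% with 0 marker UMIs and 41.8% after thinning to 5000 UMIs. The parental share was 0.699% at 10000 UMIs or more, 0.693% at 1 or fewer per 10000, 0.627% with 0 marker UMIs and 2.43% after thinning. Against cycling persister cells, 597 genes were called higher and 585 lower at 1 CPM or more (50.5% of calls higher, against 28.5% at 5 CPM), 47 higher and 288 lower at 20 CPM or more, and 1712 higher and 1020 lower with no minimum. Against out-of-cycle parental cells, 558 genes were called higher and 462 lower at 20 CPM or more. In that comparison the lower genes numbered 2084 at 1 CPM or more, 2464 with no minimum, 1849 with 0 marker UMIs, 2120 in cells of 10000 to 20000 UMIs and 731 with TMM scaling.

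Further alternatives were chosen after seeing the data. Leaving out members of high S phase UMIs gave a persister share of 32.7%, a minimum of 20 CPM gave 178 higher and 407 lower genes in the parental library, and leaving out shared barcodes moved no count of calls by over 1.5 times.

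Among named genes called at 2-fold, the sign turned in 20 of 2618 values against out-of-cycle parental cells (10 genes) and in 0 of 1314 against cycling persister cells. Among named genes not called, it turned in 100 of 1343 and 78 of 2880 values. Without a turn of a called sign, 327 and 48 gene values and 8 and 2 list medians moved by over 1.5 times. The cause was not tested. The 20 values follow. At 10000 UMIs or more, which leaves 18 out-of-cycle parental cells, log2 folds were 1.95 for ANKRD1, 1.76 for ASPM, 1.73 for CCNE2, 1.62 for EXO1, 1.34 for HSPA1A, 0.16 for IGFBP5 and 2.20 for KIF2C. At 1 marker UMI or fewer per 10000 they were 0.64 for ANKRD1, 1.05 for ASPM, 0.85 for CDK1 and 1.23 for EXO1, and with 0 marker UMIs EXO1 was at 0.98. In cells of 10000 to 20000 UMIs they were 1.79 for ANKRD1, 1.78 for ASPM, 1.87 for CCNB2, 1.90 for CCNE2, 1.52 for EXO1, 1.32 for HSPA1A, -0.10 for IL11 and 2.15 for KIF2C. Out-of-cycle parental cells hold 1201768 UMIs in all, and genes at 0 there have lower bounds only.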
